A study of Mus musculus with 27 samples.

Results

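Bone marrow-derived macrophages (BMDM) given Pam3CSK4 for 4 h were compared with BMDM given Poly(I:C) for 4 h, as a contrast between a TLR2 ligand and a TLR3 ligand in cells with no earlier stimulus. The comparison used 5 of the 27 arrays of the series, or 5 of the 25 that have deposited normalized values. These were 2 arrays of acute Pam3CSK4 (replicates 1 and 3) and 3 arrays of acute Poly(I:C) (replicates 1, 2 and 3), chosen by their labels alone. All cells came from female C57BL/6 mice of 6 to 8 weeks, no genetic change is named for any group, and they were grown for 7 days in medium conditioned by L929 cells, a fibroblast line whose medium supplies the macrophage growth factor M-CSF. The doses were 100 ng/ml for Pam3CSK4 and, for Poly(I:C), 10 µg/ml, so the comparison is between ligands at those doses and at 1 time. The naïve arrays (3 cultures left untreated) served as the background level. At one place the methods give each replicate as another mouse and at another as a separate pool of marrow, and the p-values measure only the spread between such cultures. Each replicate number is also 1 array slide that holds both ligands, so the ligands can be compared within slides 1 and 3. Each array was hybridised with Cy3-labelled cRNA of a whole culture, in which a change in RNA per cell and a change in the mixture of cells cannot be told apart.

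Pam3CSK4 is a synthetic triacylated lipopeptide that is recognised at the cell surface by TLR2 paired with TLR1, and its signal runs through the adapters TIRAP and MyD88 to NF-κB and the MAP kinases. Poly(I:C) is a synthetic double-stranded RNA that is recognised in endosomes by TLR3, which signals through the adapter TRIF to IRF3 as well as NF-κB, and in the cytosol by the helicases MDA5 and RIG-I, which signal through MAVS. IRF3 starts transcription of interferon-beta, and secreted interferon acts on its receptor to turn on interferon-stimulated genes, many of which hold interferon-stimulated response elements (ISRE) in their promoters.

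Levels are the deposited log2 values throughout. Differences are Pam3CSK4 minus Poly(I:C) on the log2 scale, so that a negative difference is a higher level after Poly(I:C). Of 55681 probes, 26658 (47.9%) passed a detection filter, which asked for a signal well above background on 2 or more arrays of 1 ligand, and these were tested with limma. A probe was called when its Benjamini-Hochberg adjusted p was under 0.05 and the difference at least 1.5-fold. The probe with the highest mean stood for each gene unless stated otherwise.

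The 5 arrays were alike in signal, with 45.0 to 49.8% of probes above background. Replicates 1 and 2 of Poly(I:C) differed by a median of 0.21, and each of them from replicate 3 by 0.38 to 0.39. Replicates 1 and 3 of Pam3CSK4 differed by 0.39. Pam3CSK4 replicate 2, which the labels give as failed in quality control, has no deposited values, and on it 99.9% of probes were above background and 22.6% of spots were non-uniform. Naïve replicate 3 also stood apart, with 74.6% of probes above background. Markers of macrophages were present. All 9 macrophage markers were above background on each of the 5 arrays, among them Csf1r, the M-CSF receptor, at 17.68 to 18.08, Cd68 at 16.80 to 17.50, Lyz2, lysozyme, at 17.20 to 17.70 and Emr1 (Adgre1, F4/80) at 15.44 to 17.21. Neutrophil markers followed the replicate number and not the ligand. All 6 of them were above background on replicates 1 and 2, with median levels of 11.82 for Pam3CSK4 replicate 1 and 11.2 and 12.05 for Poly(I:C) replicates 1 and 2. On replicate 3 only 3 (Pam3CSK4) and 2 (Poly(I:C)) of the 6 were, with medians of 4.57 and 3.46, and naïve replicate 3 had 4.31 against 10.56 and 11.09. Elane, neutrophil elastase, did not follow that split and read 11.71 to 12.12 on the 5 arrays. None of the 6 passed the test between the ligands in limma, adjusted or unadjusted. The median difference of the 6 was -0.83 over the 5 arrays, but 0.5 within slide 1 and 0.64 within slide 3. Replicate 2 is present for Poly(I:C) only, so a mean difference over the 5 arrays can mix replicate with ligand. Defining markers of T cells (Cd3d, Cd3g, Cd8a), B cells (Ms4a1), dendritic cells (Flt3, Cd209a, Xcr1), erythroid cells (Klf1, Alas2) and fibroblasts (Col1a1, Col3a1, Pdgfra) did not pass the detection filter. Other members of these lists were above background on all 5 arrays, namely Cd3e (9.46 to 10.07) and Cd4 (10.83 to 11.45) for T cells, Cd79a (5.85 to 6.59) and Cd79b (6.51 to 8.54) for B cells, Epor (4.89 to 5.77) for erythroid cells, Col1a2 (5.56 to 7.38) for fibroblasts and Zbtb46 for dendritic cells. Zbtb46, a transcription factor of classical dendritic cells, was higher on the Poly(I:C) arrays (7.87, 8.23 and 6.44) than on the Pam3CSK4 arrays (6.02 and 4.06), with no overlap, and was not called (difference -2.48, unadjusted p = 0.0253, limma adjusted p = 0.215). Its part in the results was not tested.

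The probes called in the fit of the 5 arrays were mostly higher after Poly(I:C), and interferon-beta and many interferon-stimulated genes were among them. In limma 645 probes were called (2.42% of those tested). Of these, 567 were higher after Poly(I:C) (2.13%) and carry 314 gene symbols, and 78 were higher after Pam3CSK4 (0.293%) and carry 57. With 1 probe per gene, 291 of 13513 genes (2.15%) were called higher after Poly(I:C) and 43 (0.318%) after Pam3CSK4. The differences were larger in the first direction, with a median size of 2.62 (range 1.14 to 8.76) against 1.76 (1.09 to 4.42), and 407 probes against 27 differed at least 4-fold. Over all probes tested the median difference was 0.099, and the quantile normalization of the deposited values itself holds such a shift near 0. Each called probe also differed at least 1.5-fold in the called direction on slide 1 and on slide 3. Of the genes tested, 14.2% had all 3 Poly(I:C) arrays above both Pam3CSK4 arrays and 20.1% had them below, whatever the test found. The mean was higher after Pam3CSK4 in 7817 of the 13513 genes and lower in 5696. An unadjusted p under 0.05 was about as frequent in both directions, with 1160 genes higher after Poly(I:C) (8.58%) and 1135 higher after Pam3CSK4 (8.4%).

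With 5 arrays the counts, and the balance between the directions, depended on the fit and on single arrays. With the slide as a random block limma called 2054 probes higher after Poly(I:C) and 1884 higher after Pam3CSK4, and with the replicate number as a fixed block it called 0 and 0, with 6594 at an unadjusted p under 0.05. Without Poly(I:C) replicate 1 or without replicate 2, 0 probes were called in limma in either direction, while 3108 and 2986 had an unadjusted p under 0.05. Without Pam3CSK4 replicate 1 the counts were 98 and 23, without Pam3CSK4 replicate 3 they were 1 and 5, and without Poly(I:C) replicate 3 they were 799 and 232 (higher after Poly(I:C) and after Pam3CSK4). This limit applies to the call of every gene named here. A limma fit that took the spread from 8 groups on the shared slides (22 arrays) called 1230 probes higher after Poly(I:C) (4.61%) and 793 higher after Pam3CSK4 (2.97%), and among them were 517 of the 567 and 66 of the 78. The 8 groups were naïve cells, cells given Pam3CSK4, Poly(I:C) or CpG (a TLR9 ligand) once, and re-stimulated cells. Re-stimulated cells had LPS (a TLR4 ligand), CpG, Pam3CSK4 or Poly(I:C) as a pretreatment and the same ligand again for 4 h. With the replicate block added to the 8 groups the counts were 1494 and 1294. Leaving out each of the 5 arrays in turn from the fit of 8 groups without that block gave 607 to 1447 and 290 to 1338 calls. The adjusted p of the fit of 8 groups without the block is given as "8-group adjusted p". It stands beside a gene where the call differs from that of the 5 arrays.

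**Figure D1:**
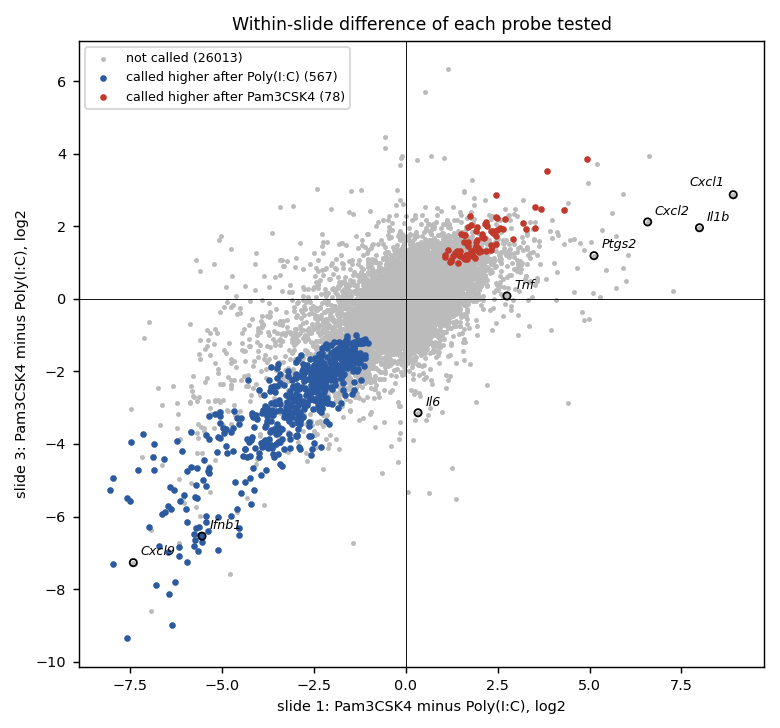
Each point is 1 of the 26658 probes tested, at its difference (Pam3CSK4 minus Poly(I:C), log2) within slide 1 (horizontal axis) and within slide 3 (vertical axis). The 567 probes called higher after Poly(I:C) lie in the lower left and the 78 called higher after Pam3CSK4 in the upper right. Cxcl1, Cxcl2, Il1b and Ptgs2 lie far to the right but low, since their difference on slide 3 was smaller than on slide 1.

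**Figure D2:**
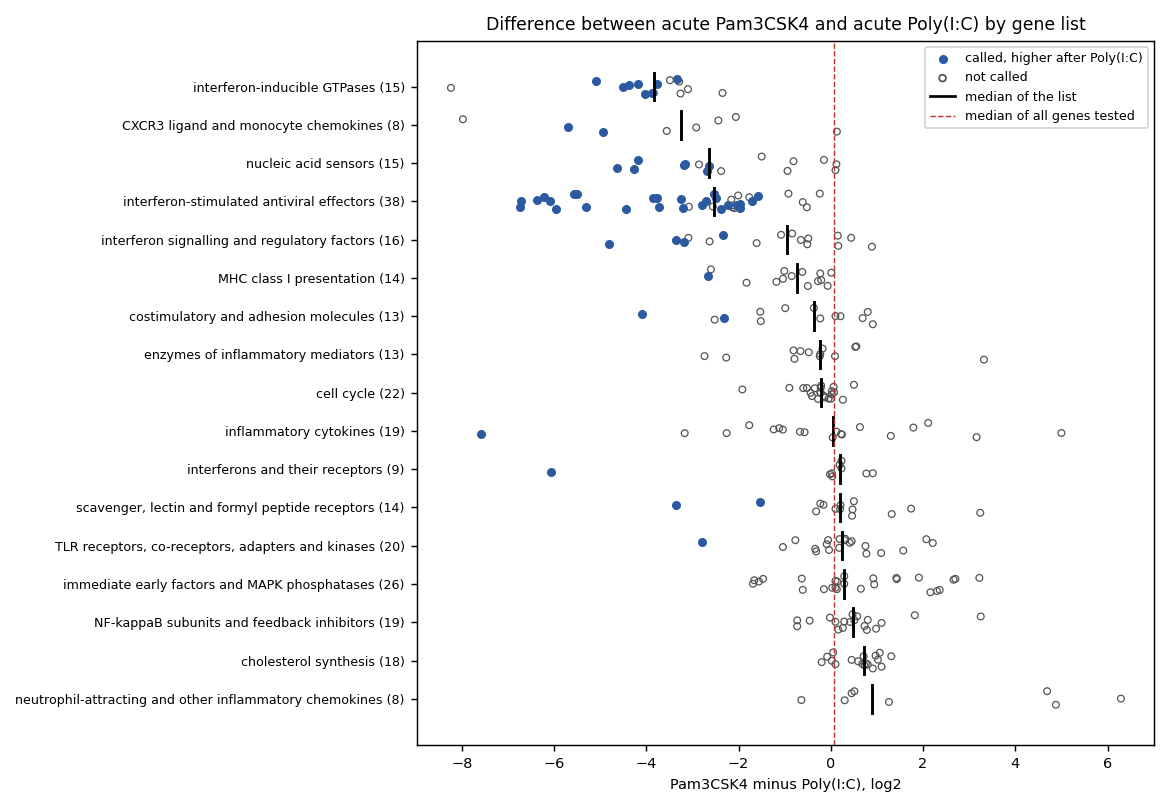
Each point is 1 gene of a list, at its difference (Pam3CSK4 minus Poly(I:C), log2). Filled points were called higher after Poly(I:C), open points were not called, the black bar is the median of the list and the dashed line the median of all 13513 genes. The number tested stands in brackets. The GTPases have the lowest median (-3.84) and the neutrophil-attracting chemokines the highest (0.89).

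Among interferons and their receptors, interferon-beta was the 1 gene of 9 tested that was called (background 2.15% of genes). Ifnb1, which encodes it, read 6.67 and 4.45 on Pam3CSK4 replicates 1 and 3, and 12.22, 11.68 and 10.99 on Poly(I:C) replicates 1, 2 and 3. The naïve arrays read 2.93 to 3.13, so that both Pam3CSK4 arrays lay above the naïve level and below every Poly(I:C) array. The difference was -6.07 (SE 0.74, limma adjusted p = 0.029), a 67.2-fold higher level after Poly(I:C), and within slides 1 and 3 it was -5.55 and -6.54. The interferon-alpha probes (Ifna1, Ifna2 and Ifna5, near-identical genes that a probe may not separate) differed by -0.02 to 0.23, and none was called. The receptor chains Ifnar1, Ifnar2, Ifngr1, Ifngr2 and Il10rb differed by 0.02 to 0.91, and none was called either. Ifngr2 had the lowest unadjusted p of these, with 14.01 and 13.33 against 12.87, 12.82 and 12.6 and a limma adjusted p of 0.189.

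The signalling and regulatory factors downstream of the receptor were higher after Poly(I:C) in 4 of 16 cases tested and higher after Pam3CSK4 in 0, with a median difference of -0.96 against 0.078 for all genes. Unadjusted, 10 of the 16 had a p under 0.05 in the Poly(I:C) direction (8.58% of all genes) and 0 in the other (8.4%). Socs1, a feedback inhibitor of the JAK kinases, read 10.55 and 8.76 after Pam3CSK4 and 14.69, 14.68 and 14.02 after Poly(I:C) (difference -4.81, SE 0.58, limma adjusted p = 0.0283). The groups do not overlap, and the naïve level was 7.59 to 8.10, below both. Stat2, a transcription factor of interferon signalling, read 11.52 and 11.16 against 14.61, 14.52 and 14.42 (difference -3.18, SE 0.20, limma adjusted p = 0.0159). For Stat2 the naïve arrays, at 12.05 to 12.82, lay between the ligands. Irf2, a member of the interferon regulatory factor family, differed by -2.33 (SE 0.26, limma adjusted p = 0.0239).

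Irf7, the factor that amplifies interferon-alpha production, missed the threshold, with 11.25 and 9.83 against 13.67, 14 and 13.22 (difference -3.09, SE 0.49, limma adjusted p = 0.0518, 8-group adjusted p = 0.00226). Irf1, a factor that interferon-gamma also induces, read 14.94 and 13.51 against 17.28, 17.10 and 16.16 (difference -2.63, adjusted p = 0.098 in limma, 8-group adjusted p = 0.00138). The groups do not overlap in either gene. Irf9, another interferon regulatory factor, differed by -1.08, and Irf8, a macrophage lineage factor, by -1.61, and both were called only in the fit of 8 groups (adjusted p = 0.00996 and 0.0224 in limma). That fit called 9 of the 16 higher after Poly(I:C) and 0 higher after Pam3CSK4, where 4.97% and 3.63% of all genes were called. The kinases Jak1, Jak2 and Tyk2 differed by -0.51 to 0.16, and Irf3, which the adapters activate by phosphorylation, by 0.44. Socs3, the inhibitor that IL-6 and IL-10 signalling induce, read 15.64 and 13.45 against 13.82, 13.65 and 13.52, with 1.83 on slide 1 and -0.07 on slide 3.

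The antiviral effectors were the list with most calls. Of 38 tested, 26 were called higher after Poly(I:C) and 0 higher after Pam3CSK4, all 38 had a lower mean after Pam3CSK4, and the median difference was -2.54 (-2.62 on slide 1 and -2.6 on slide 3). Unadjusted, 35 had a p under 0.05 in that direction and 0 in the other, against 8.58% and 8.4% of all genes. Of all genes 2.15% and 0.318% were called. The IFIT proteins, which bind foreign RNA, had some of the widest gaps. Ifit1 read 11.41 and 10.30 after Pam3CSK4 and 16.52, 16.41 and 16.30 after Poly(I:C), with 10.24 to 10.50 in naïve cells (difference -5.56, SE 0.36, limma adjusted p = 0.0159). Ifit3 read 11.81 and 10.02 against 17.35, 17.38 and 16.72 (difference -6.23, SE 0.58, limma adjusted p = 0.0177), and the naïve arrays, at 11.55 to 13.20, overlapped the Pam3CSK4 arrays or lay above them. Ifit2 differed by -6.09 and was called as well. I830012O16Rik (RefSeq Ifit3b) is a near-identical copy of Ifit3, so their probes may read both genes. Its probes differed by -6.71 and -7.93, the latter from 5.85 and 2.41 to 12.22, 12.57 and 11.39 (limma adjusted p = 0.0342), with 1 of the 2 Pam3CSK4 arrays above background.

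Enzymes of the antiviral state behaved alike. Rsad2 encodes viperin, which makes a chain-terminating nucleotide, and read 12.37 and 10.55 against 18.03, 17.96 and 17.51 (difference -6.38, SE 0.56, limma adjusted p = 0.0167). Its genomic neighbour Cmpk2, a nucleotide kinase of mitochondria, read 9.87 and 8.37 against 16.34, 16.04 and 15.36 with the probe of the larger difference (-6.80, SE 0.54, limma adjusted p = 0.0163) and differed by -6.74 with the other. The naïve levels of Rsad2 were 10.47 to 11.50, and those of Cmpk2 with the first probe 9.08 to 9.49, which overlap the Pam3CSK4 arrays in both genes. Isg15, a ubiquitin-like modifier, read 14.69 and 14.16 against 17.89, 17.71 and 17.44 (difference -3.25, SE 0.26, limma adjusted p = 0.0163), and Usp18, the protease that removes it, differed by -3.72 (SE 0.23, limma adjusted p = 0.0159). The naïve arrays read 13.96 to 14.26 for Isg15 and 11.90 to 12.09 for Usp18, close to the Pam3CSK4 arrays (11.90 and 11.36 for Usp18). Mx1 and Mx2, dynamin-like GTPases that block viral nucleocapsids, differed by -5.51 and -5.32. Oasl1, a relative of the 2′-5′-oligoadenylate synthetases, differed by -5.97 (SE 0.30, limma adjusted p = 0.0159), and Isg20, a 3′ exonuclease, by -4.45. Of 11 genes with an Oas symbol tested, 7 were called higher after Poly(I:C) (63.6%, against 2.15% of all genes). They were Oas1a, Oas1c, Oas1e, Oas1f, Oas1g, Oas2 and Oasl1, though copies of Oas1 are alike enough to share probes. Eif2ak2, the kinase PKR, differed by -2.70 and Adar, the RNA editing enzyme, by -2.03, and both were called.

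The 12 effectors that were not called differed by -3.08 to -0.24, and among them were Oas1b, Oas3, Oasl2, Bst2, Ifitm1, Ifitm3, Rtp4, Parp9, Parp14, Dtx3l and Sp100. In the fit of 8 groups 34 of the 38 were called, and the exceptions were Oas1b, Bst2 (tetherin, which holds budding virus at the membrane), and the entry inhibitors Ifitm1 and Ifitm3. Bst2 read 15.06 and 15.06 against 15.65, 15.71 and 15.65, a small gap in which the groups do not overlap. Ifitm1 read 9.81 and 8.02 against 9.12, 10.30 and 8.03, and there the groups overlap.

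Promoters of these genes were searched for the core of the ISRE, GAAA, any 2 bases and GAAA, on both strands of the 250 bases before each start (RefSeq promoters, GRCm38.p6). The core stood in 978 of 32851 promoters (2.98%), in 44 of 293 promoters of genes called higher after Poly(I:C) (15%) and in 0 of 54 of genes called higher after Pam3CSK4. Among the lists it stood in 10 of 37 promoters of antiviral effectors (27%) and in 8 of 10 of interferon-inducible GTPases (80%). It stood in 3 of 17 promoters of interferon signalling and regulatory factors (17.6%). Nucleic acid sensors, with 7 of 15 genes called, had it in 0 of 8 promoters. Interferons and their receptors, with 1 of 9 called, had it in 3 of 8 (37.5%). The stretches below are shown because they carry this core upstream of genes with a wide gap between the ligands. Each runs 5′ to 3′ along the strand of the gene, with the core in capitals, and for Ifit1 and Rsad2 the core reads on the opposite strand. The match describes the letters and no binding was measured.
Ifit1 (chr19:34640789-34640828, plus strand): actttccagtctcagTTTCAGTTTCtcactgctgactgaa
Rsad2 (chr12:26456548-26456587, minus strand): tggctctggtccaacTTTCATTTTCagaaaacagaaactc
Isg15 (chr4:156200872-156200911, minus strand): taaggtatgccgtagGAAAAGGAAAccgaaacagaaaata
Irgm2 (chr11:58214898-58214937, plus strand): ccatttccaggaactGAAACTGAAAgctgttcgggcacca

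**Figure D3:**
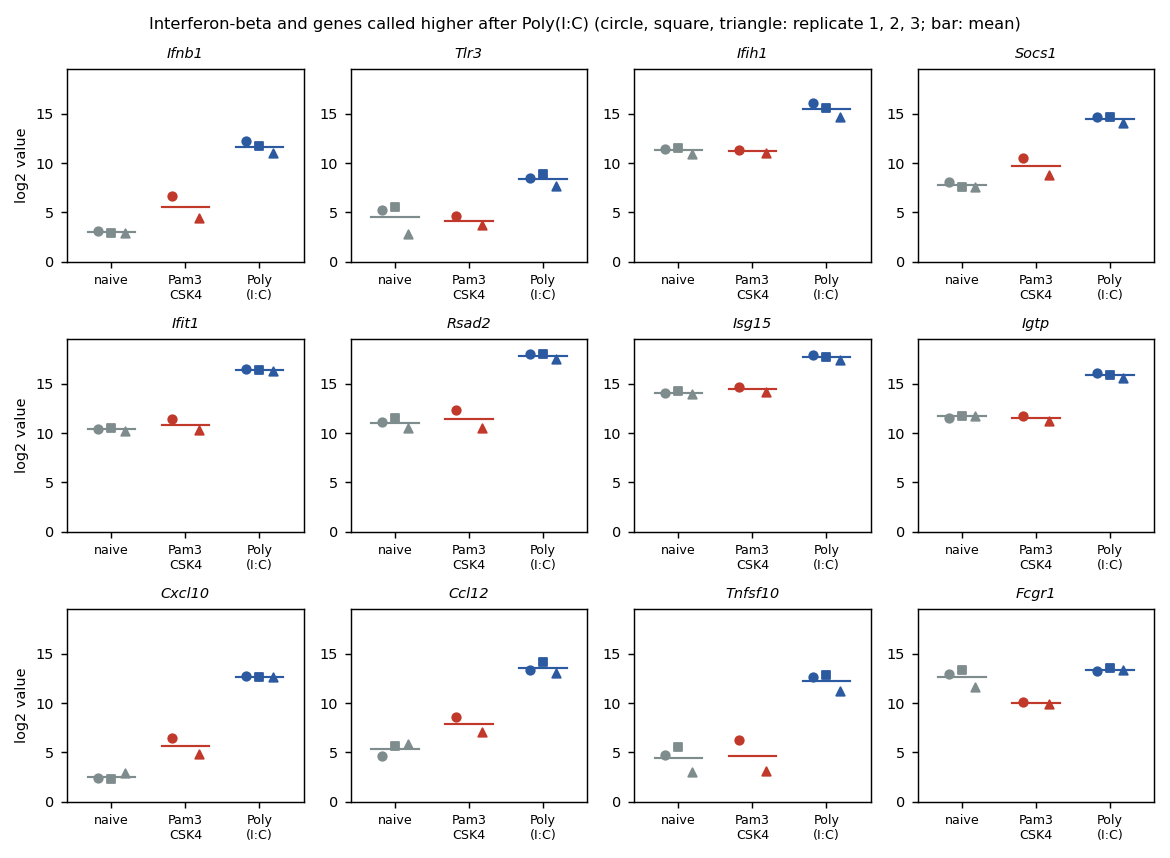
Log2 values of 12 genes called higher after Poly(I:C), array by array, for naïve cells (grey), acute Pam3CSK4 (red, replicates 1 and 3) and acute Poly(I:C) (blue). Bars are group means, and for Cxcl10 the probe with the larger difference is drawn. Every Poly(I:C) array lies above both Pam3CSK4 arrays in each panel, and for Fcgr1 the naïve arrays, at 11.59 to 13.36, lie above both Pam3CSK4 arrays.

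The interferon-inducible GTPases, which attack the vacuoles of intracellular pathogens, had the lowest median difference of any list (-3.84, with -3.49 on slide 1 and -3.97 on slide 3). Of 15 tested, 8 were called higher after Poly(I:C) and 0 higher after Pam3CSK4, and in all 15 the groups do not overlap, against 14.2% of genes in that direction. All 15 had an unadjusted p under 0.05, against 8.58% of all genes in that direction, and 2.15% of all genes were called in it. Tgtp1, an immunity-related GTPase with the near-identical copy Tgtp2, read 3.95 and 3.81 against 9.30, 9.04 and 8.60 (difference -5.10, SE 0.26, limma adjusted p = 0.0159), with 1 of 2 Pam3CSK4 arrays above background. Igtp (Irgm3) read 11.71 and 11.25 against 16.04, 15.93 and 15.62, and the naïve arrays read 11.52 to 11.77. Its difference was -4.38 (SE 0.25, limma adjusted p = 0.0159), and that of Irgm2, whose promoter stretch is printed above, was -4.19 (SE 0.26, limma adjusted p = 0.0159). For Igtp the Pam3CSK4 arrays overlap the naïve arrays. Iigp1 differed by -4.51 and -6.93 with its 2 probes, both called.

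The guanylate-binding proteins (Gbp), larger GTPases of the same defence, varied more between arrays. Gbp6 and Gbp7 were called (-3.34 and -3.78). Gbp5, which also promotes inflammasome assembly, read 13.42 and 10.23 against 15.55, 15.35 and 14.35, above the naïve level of 6.61 to 7.49 on all 5 arrays (difference -3.26, SE 0.99, limma adjusted p = 0.197, 8-group adjusted p = 0.0195). Gbp4 had the widest difference of the list, from 5.83 and 2.00 to 12.78, 13.06 and 10.61 (-8.24, SE 1.34), but missed the threshold in limma (adjusted p = 0.0542, 8-group adjusted p = 0.000296). The Gbp genes are near-identical in places and a probe may read more than 1 of them. In the fit of 8 groups 14 of the 15 GTPases were called, all but Gbp8, which was dim.

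Nucleic acid sensors were higher after Poly(I:C) in 7 of 15 cases, among them the receptors of the ligand itself, and 0 were called higher after Pam3CSK4 (unadjusted, 12 and 0). Of all genes 2.15% and 0.318% were called, and 8.58% and 8.4% passed unadjusted. Tlr3, the endosomal receptor of double-stranded RNA, was not well above background on either Pam3CSK4 array, at 4.63 and 3.68, and read 8.51, 8.90 and 7.63 after Poly(I:C), which makes it at least 18.2-fold higher after Poly(I:C) (limma adjusted p = 0.0254). That bound sets the mean of the brighter group against, array by array, the higher of the gene's own signal and the dimmest signal still above background. In each bound given here the gene's own signal was the higher, so that the bound equals the measured fold. Each bound holds for the deposited values in the fit of 5 arrays only, and in other settings the difference could be smaller. Over the other settings and the arrays left out, the difference of Tlr3 ranged from -4.66 to -2.14. The naïve arrays read 2.81 to 5.56, so that the Pam3CSK4 arrays lay within the naïve range. Ifih1 (MDA5) read 11.35 and 11.04 against 16.12, 15.60 and 14.70 (difference -4.28, SE 0.45, limma adjusted p = 0.0208), and Ddx58 (RIG-I) 11.80 and 11.36 against 14.75, 14.78 and 14.78 (difference -3.19, SE 0.21, limma adjusted p = 0.0159). For Ddx58 both Pam3CSK4 arrays lay below the naïve arrays (12.26 to 12.74). Ddx60, a helicase that assists RIG-I, was at least 24.9-fold higher after Poly(I:C) (limma adjusted p = 0.0166). Its difference ranged from -5.14 to -1.83 over the other settings and the arrays left out.

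Sensors of DNA were among the calls as well. E330016A19Rik, which RefSeq names Cgas and which makes the messenger cGAMP, differed by -3.16 (SE 0.27, limma adjusted p = 0.0166), and Aim2, the inflammasome sensor of DNA, by -2.64 (SE 0.36, limma adjusted p = 0.0353). Zbp1, a sensor of Z-form nucleic acid, and Ifi204 differed by -2.86 and -2.38 and were called only in the fit of 8 groups (limma adjusted p = 0.00084 and 0.000976). The adapters that stand below the sensors, Mavs and Tmem173 (STING), differed by 0.10 and -1.5, with limma adjusted p of 0.889 and 0.255. The endosomal receptors of single-stranded nucleic acids, Tlr7, Tlr8, Tlr9 and Tlr13, differed by -0.94 to 0.12, and none was called.

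In the MHC class I pathway 1 of 14 genes was called (2.15% of all genes in that direction). It was Nlrc5, the transactivator of class I genes (10.60 and 9.65 against 12.88, 12.95 and 12.55, difference -2.67, SE 0.34, limma adjusted p = 0.0322). The list as a whole had a median of -0.74, and 13 of 14 means were lower after Pam3CSK4, against 5696 of 13513 for all genes. Unadjusted, 6 had a p under 0.05 in that direction and 0 in the other, against 8.58% and 8.4% of all genes. Tap1, a subunit of the peptide transporter, read 10.15 and 9.16 against 12.56, 12.49 and 11.71 (difference -2.6, limma adjusted p = 0.0543, 8-group adjusted p = 0.00205), and Psmb9, an immunoproteasome subunit, differed by -1.83 (limma adjusted p = 0.0693, 8-group adjusted p = 0.00275). The class I chains H2-K1 and H2-D1, which share sequence, and B2m differed by -0.23 to -0.07, at levels of 16.61 to 17.60.

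Chemokines that attract T cells and monocytes had a median difference of -3.24 (-2.13 on slide 1 and -4.10 on slide 3), and 2 of 8 were called higher after Poly(I:C) and 0 higher after Pam3CSK4 (unadjusted, 6 and 0). Of all genes 2.15% and 0.318% were called, and 8.58% and 8.4% passed unadjusted. Cxcl10, a ligand of CXCR3, read 13.94 and 12.47 against 18.15, 18.17 and 18.12 with the brighter probe (difference -4.94, SE 0.45, limma adjusted p = 0.0171) and 6.45 and 4.79 against 12.74, 12.61 and 12.6 with another (difference -7.03, SE 0.50, limma adjusted p = 0.0159). With the brighter probe all 5 arrays lay above the naïve arrays (6.89 to 9.96). Ccl12, a ligand of CCR2, read 8.57 and 7.08 against 13.33, 14.20 and 13.07 (difference -5.71, SE 0.57, limma adjusted p = 0.0192). Cxcl9, another CXCR3 ligand, had the widest difference of the list but also a wide spread, with 7.14 and 3.18 against 14.56, 14.42 and 10.45 (-7.98, SE 1.75, limma adjusted p = 0.106, 8-group adjusted p = 0.000508). Ccl5, a chemokine of T cells and monocytes, read 17.40 and 13.40 against 18.24, 18.35 and 16.92, and its groups overlap (difference -2.44, SE 1.23, limma adjusted p = 0.404). On slide 1 its difference was -0.84 and on slide 3 it was -3.52. Ccl2, Ccl7 and Ccl8 differed by -2.06, -2.92 and -3.56 and were not called, and of these Ccl8 was called in the fit of 8 groups (adjusted p = 0.0165 in limma). The probe of Cxcl11 read 17.63 to 17.91 on all 5 arrays and 17.75 to 17.91 on the naïve arrays. Whether this flat signal reads Cxcl11 mRNA was not tested.

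The 10 genes with the widest called difference after Poly(I:C) were Gm14446, I830012O16Rik, Trim30c, Tnfsf10, Cxcl10, Iigp1, Cmpk2, Serpinh1, Gm4951 and Ptprg. Gm14446, which RefSeq names Ifit1bl1, read 6.24 and 2.67 against 13.82, 13.81 and 12.02 (difference -8.76, SE 1.19, limma adjusted p = 0.036), with 1 of 2 Pam3CSK4 arrays above background. Trim30c, of a TRIM family cluster on chromosome 7, was not well above background on either Pam3CSK4 array (3.58 and 2.81) and was at least 239-fold higher after Poly(I:C), at 11.56, 11.59 and 10.13 (limma adjusted p = 0.0159). Its difference ranged from -8.38 to -4.63 over the other settings and the arrays left out. Tnfsf10, the death ligand TRAIL, read 6.21 and 3.13 against 12.67, 12.81 and 11.26 (difference -7.58, SE 1.01, limma adjusted p = 0.0348) and was the 1 of 19 inflammatory cytokines called. Gm4951, a predicted GTPase of the interferon-inducible kind, differed by -6.75 (SE 0.58, limma adjusted p = 0.0166). The TRIM family had 13 of 45 genes called higher after Poly(I:C) (28.9%) and 1, Trim36, higher after Pam3CSK4. The 13 were Trim6, Trim12a, Trim12c, Trim14, Trim21, Trim25, Trim26, Trim30a, Trim30b, Trim30c, Trim30d, Trim34a and Trim71, and copies within the Trim12, Trim30 and Trim34 clusters may share probes. Families were counted after their calls were seen, and include Serpina3, serine protease inhibitors, with 3 of 5 called, Pydc, pyrin-domain regulators, with 2 of 2, Schlafen with 2 of 8 and Parp with 3 of 12. All these calls were higher after Poly(I:C), as were those of 2.15% of all genes. Other families had few calls in that direction, with 3 of 294 Zfp, 1 of 18 Dusp, 2 of 23 Ccl and Cxcl and 0 of 49 Il symbols. Of the Zfp genes, 6 (2.04%) were called higher after Pam3CSK4, against 0.318% of all genes. Among 91 ribosomal protein genes 0 were called in limma.

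Surface molecules gave a smaller set. Cd69, an activation marker that holds back egress of lymphocytes, read 11.67 and 10.18 against 15.04, 15.25 and 14.78 (difference -4.10, SE 0.47, limma adjusted p = 0.0254), and all 5 arrays lay above the naïve arrays (4.04 to 7.92). Cd274 (PD-L1), the checkpoint ligand, read 12.68 and 12.58 against 15.08, 14.93 and 14.85 (difference -2.32, SE 0.18, limma adjusted p = 0.0163), and the naïve arrays read 11.62 to 12.28. These were the 2 of 13 costimulatory and adhesion genes called (2.15% of all genes in that direction). Cd40, the receptor of the T cell ligand CD40L, read 13.56 and 10.81 against 14.32, 14.02 and 12.77, far above the naïve arrays, but its groups overlap (limma adjusted p = 0.487). Cd80, Cd86, Icam1 and Vcam1 differed by -1.53 to 0.21, and none was called.

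Both activating receptors for IgG on the lists were higher after Poly(I:C), with different naïve levels. They were the 2 called of 14 scavenger, lectin and formyl peptide receptors, where 2.15% of all genes were called in that direction. That list had a median difference of 0.2. Of its means 9 were higher after Pam3CSK4 and 5 lower, against 7817 and 5696 of 13513 for all genes. Fcgr1 (CD64), the high-affinity receptor, read 10.11 and 9.94 against 13.29, 13.52 and 13.32 (difference -3.35, SE 0.19, limma adjusted p = 0.0159). Its naïve arrays, at 12.90, 13.36 and 11.59, lay above both Pam3CSK4 arrays. Fcgr4 read 11.86 and 11.96 against 13.23, 13.47 and 13.62 (difference -1.53, SE 0.20, limma adjusted p = 0.0342), and its naïve arrays, at 12.23 to 12.59, lay between. Mertk, a receptor for apoptotic cells that was listed as a macrophage marker with Fcgr1, also had both Pam3CSK4 arrays below the naïve arrays, with 8.67 and 8.38 after Pam3CSK4, 11.34, 10.83 and 10.60 after Poly(I:C) and 11.58, 11.30 and 10.21 in naïve cells (difference -2.40, SE 0.28, limma adjusted p = 0.0272). The other 7 macrophage markers were not called, with differences of -0.32 to 0.77. The scavenger receptor Marco read 16.66 and 18.31 against 11.56, 13.01 and 18.15. Its naïve arrays read 9.99, 11.42 and 17.97, so that replicate 3 was high in every group.

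Some of the probes with wide differences shared a stretch of bases. The search for shared bases was made after the calls were seen. Of probes whose 60 bases hold GGGAGGGG, 78 were tested, 17 (21.8%) were called higher after Poly(I:C) and 0 higher after Pam3CSK4, where 2.13% and 0.293% of all probes were. Their median difference was -3.91, and the 61 that were not called had a median of -3.01. Probes that hold the complement, CCCCTCCC, did not share it. Of 83 tested 1 was called, and their median was 0.26. The stretch went with a larger difference where it started within the first 26 bases of the probe (54 probes, median -4.11) than where it started later (24 probes, median -1.89). A purine-rich stretch, AGGAAGGA, gave 15 calls higher after Poly(I:C) among 93 probes tested (16.1%), with a median of -0.57, and its complement TCCTTCCT gave 0 among 111, with a median of 0.2. The 6 stretches below are shown because they are parts of probes called higher after Poly(I:C) and share these bases. Each is part of the 60-base probe, written 5′ to 3′ as the array file gives it, with the shared bases in capitals and the place of the whole probe in mm9.
Serpinh1 (chr7:106493971-106494030): gGGGAGGGGaaatatga
Ptprg (chr14:13074419-13074478): ggGGGAGGGGttttataa
Hspbap1 (chr16:35828473-35828532): taaaaaagGGGAGGGGgctatata
Tubb3 (chr8:125945850-125945909): tattcgggGGGAGGGGtatactta
Hoxc5 (chr15:102847783-102847842): GGGAGGGGcagggaga
Fgf8 (chr19:45811355-45811414): aagGGGAGGGGctggggag

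The genes of these probes have unrelated roles. Serpinh1 encodes a collagen chaperone, Ptprg a receptor phosphatase, Tubb3 a neuronal tubulin, Hoxc5 a homeobox factor and Fgf8 a growth factor of development. Serpinh1 was not well above background on either Pam3CSK4 array (3.53 and 3.46) and read 11.58, 10.47 and 8.72 after Poly(I:C), at least 108-fold higher (limma adjusted p = 0.0301). Its difference ranged from -7.53 to -3.57 over the other settings and the arrays left out. Ptprg read 4.47 and 3.41 against 11.98, 11.03 and 8.99 (difference -6.72, SE 0.93, limma adjusted p = 0.0382). In both, Poly(I:C) replicate 1 was highest and replicate 3 lowest, and the naïve arrays read 2.69 to 5.21.

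The tested probes with GGGAGGGG read higher on the Poly(I:C) arrays of the series than on the others. Their median over the 78 probes was 8.12 to 10.69 on the 6 arrays of cells given Poly(I:C), acute or re-stimulated, and 4.65 to 6.36 on the 19 other arrays, with no overlap. The probes with the complement read 10.75 to 11.61 and 10.9 to 12.15, and all probes tested read 8.29 to 8.34. The 19 are the naïve arrays and those of LPS, CpG and Pam3CSK4, acute or re-stimulated. The 78 are those of 99 such probes that passed the detection filter, which used the acute arrays of both ligands. The bases were also picked from the calls on those arrays, so the acute arrays are no separate test. The re-stimulated Poly(I:C) arrays, at 8.12 to 10.26, entered neither step. For the purine-rich stretch the acute Poly(I:C) arrays (7.94 to 8.28) lay above the 19 others (6.32 to 7.61), and the re-stimulated Poly(I:C) arrays (6.81 to 7.14) did not. Whether these bases have a part in the signal of the probes was not tested. Without the probes that hold either stretch 513 probes were called higher after Poly(I:C) and 71 higher after Pam3CSK4 of 26488 tested. Of the genes named here as the widest or as fixed examples, Serpinh1 and Ptprg hold GGGAGGGG, and of the lists Mki67 alone holds either stretch (AGGAAGGA, difference -0.52).

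**Figure D4:**
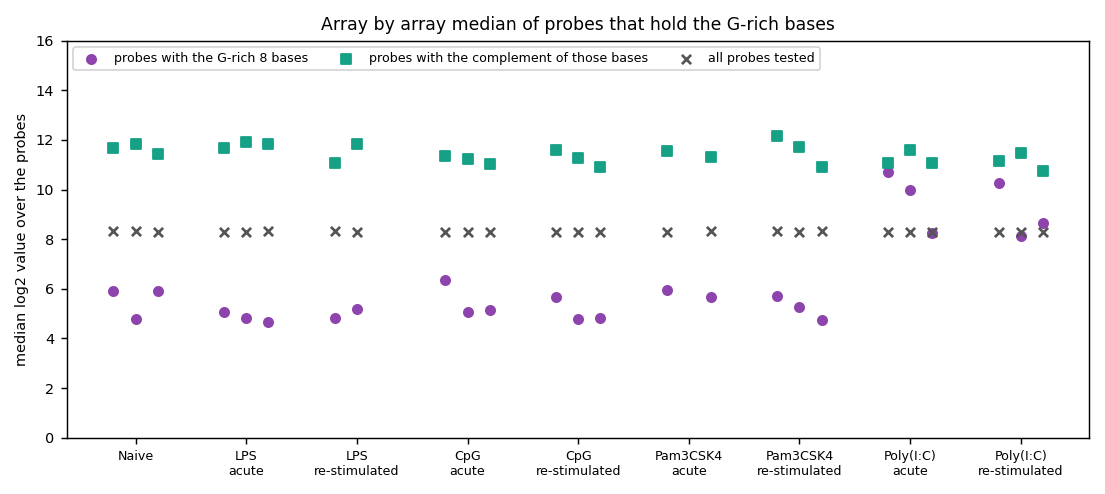
Median log2 level of probe sets on each array, by group. Probes that hold the G-rich bases (78 tested) read 8.12 to 10.69 on the 6 Poly(I:C) arrays and 4.65 to 6.36 on the 19 others, while the probes with the complementary bases and all tested probes show no such split. The G-rich bases were picked from the calls on the acute Pam3CSK4 and Poly(I:C) arrays.

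In the fit of 5 arrays fewer genes were called higher after Pam3CSK4, and Cxcl1, Il1b, Cxcl3 and Cxcl2, the inflammatory genes with the widest difference in that direction, were not among them. Of 8 chemokines that attract neutrophils and other inflammatory cells, 0 were called in limma in either direction. Their median difference was 0.89, with 1.77 on slide 1 and 0.56 on slide 3. Of their means 7 were higher after Pam3CSK4, against 7817 of 13513 for all genes. Unadjusted, 3 had a p under 0.05 in that direction and 1 in the other, against 8.4% and 8.58% of all genes. The fit of 8 groups called the same 3, Cxcl1, Cxcl2 and Cxcl3, ligands of the neutrophil receptor CXCR2. It called 3.63% of all genes in that direction. Cxcl1 read 16.51 and 13.38 after Pam3CSK4 and 7.60, 7.85 and 10.51 after Poly(I:C) (difference 6.29, SE 1.29, limma adjusted p = 0.0919, 8-group adjusted p = 0.00639). Its groups do not overlap, but the gap was 8.91 on slide 1 and 2.87 on slide 3, and naïve replicate 3 read 9.10 against 4.22 and 5.73 for naïve replicates 1 and 2. Cxcl2 read 15.73 and 14.10 against 9.15, 9.56 and 11.98 (difference 4.69, SE 1.00, limma adjusted p = 0.0996, 8-group adjusted p = 0.0176), with 6.58 on slide 1 and 2.12 on slide 3. Cxcl3 differed by 4.88 (SE 1.64, limma adjusted p = 0.234, 8-group adjusted p = 0.0405). Ccl3 and Ccl4, macrophage inflammatory proteins, were high after both ligands, with 17.08 and 16.47 against 14.71, 15.09 and 16.72 for Ccl3 and 17.16 and 16.95 against 17.49, 17.62 and 17.97 for Ccl4, and neither was called.

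The κB motif, by which NF-κB binds, stood in 4 of 6 promoters of these chemokines (66.7%) and in 10 of 20 of NF-κB subunits and inhibitors (50%), against 1281 of 32851 promoters (3.9%). It stood in 14 of 293 promoters of genes called higher after Poly(I:C) (4.78%) and in 1 of 54 of those called higher after Pam3CSK4 (1.85%). The AP-1 motif TGANTCA, searched in the same way, stood in 6.75%, 5.46% and 3.7% of the promoters of these sets (all, Poly(I:C) and Pam3CSK4). The stretches below carry the κB motif in capitals, on the strand of the gene. Those of Cxcl1 and Cxcl2, higher after Pam3CSK4 on every array, and that of Ifnb1, higher after Poly(I:C), are shown because genes on both sides of the comparison hold it.
Cxcl1 (chr5:90891159-90891198, plus strand, GRCm38.p6): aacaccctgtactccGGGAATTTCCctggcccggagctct
Cxcl2 (chr5:90903787-90903826, plus strand, GRCm38.p6): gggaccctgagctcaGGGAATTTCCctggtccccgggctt
Ifnb1 (chr4:88522886-88522925, minus strand, GRCm38.p6): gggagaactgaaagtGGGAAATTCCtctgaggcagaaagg

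**Figure D5:**
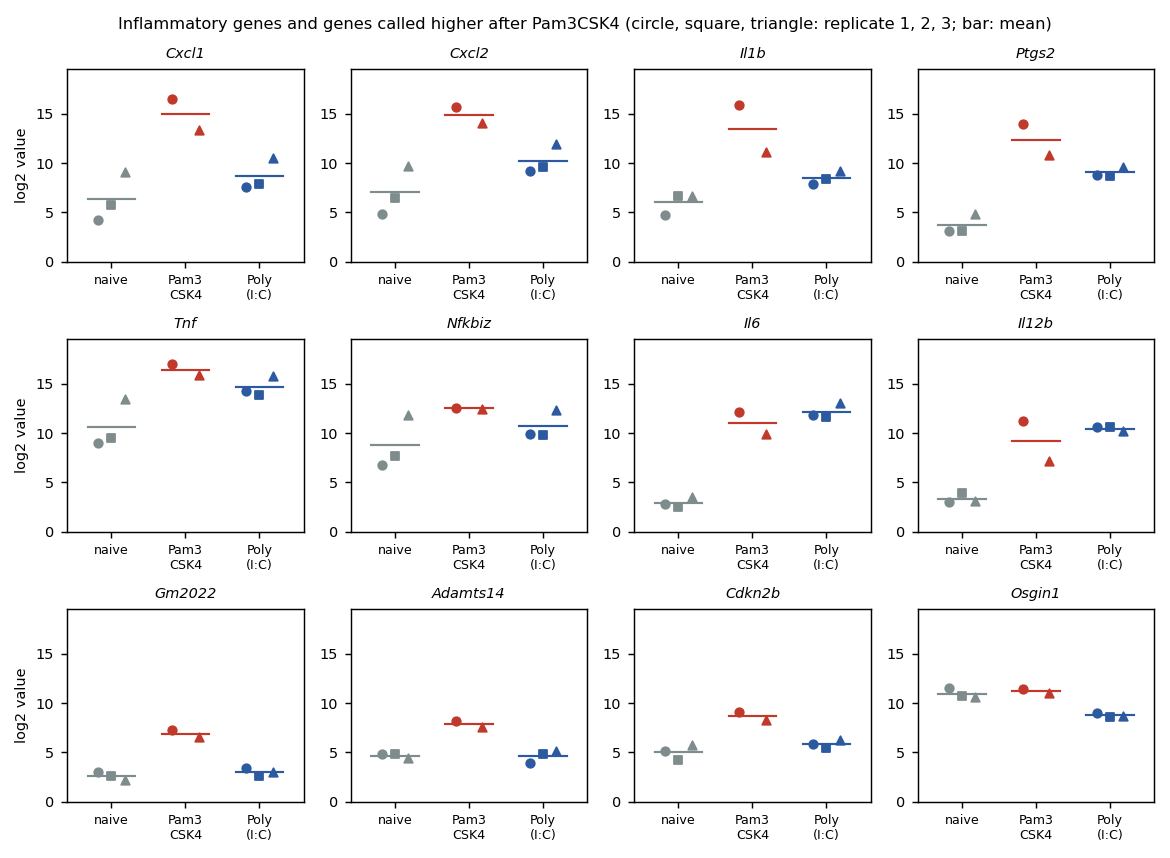
Log2 values, array by array, for naïve cells (grey), acute Pam3CSK4 (red) and acute Poly(I:C) (blue), with bars at group means, for genes higher after Pam3CSK4 and for inflammatory genes that were not called. In Cxcl1 the arrays of replicate 3 stand closer together (13.38 and 10.51) than those of replicate 1 (16.51 and 7.60).

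Of 19 inflammatory cytokines tested, Tnfsf10 (above) was the 1 called, and 0 were called higher after Pam3CSK4 (unadjusted, 3 and 2). Of all genes 2.15% and 0.318% were called, and 8.58% and 8.4% passed unadjusted, so the counts of this list lie near those shares. The median difference was 0.04. Il1b, interleukin 1β, read 15.85 and 11.11 against 7.86, 8.42 and 9.15 (difference 5, SE 1.41, limma adjusted p = 0.172, 8-group adjusted p = 0.00779), with 7.99 on slide 1 and 1.96 on slide 3. Tnf read 16.97 and 15.87 against 14.22, 13.86 and 15.80 (difference 1.79, limma adjusted p = 0.282), with 2.75 on slide 1 and 0.08 on slide 3. The groups do not overlap in either gene, and naïve replicate 3 was the highest naïve array for Tnf (13.44 against 9 and 9.53). Il15, a growth factor of natural killer cells that interferon induces, read 10.64 and 7.28 against 12.71, 12.65 and 11.03 (difference -3.17, limma adjusted p = 0.248, 8-group adjusted p = 0.0123). Il27, a subunit of a cytokine that limits T cells, differed by -1.77 (8-group adjusted p = 0.0488 in limma).

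Il6, Il10, Il12b and Nos2 turned direction between slides. Il6 differed by 0.33 on slide 1 and -3.14 on slide 3 (12.15 and 9.91 against 11.82, 11.60 and 13.05), and all 5 arrays lay far above the naïve arrays (2.47 to 3.55). Il12b, a subunit of IL-12 and IL-23, read 11.23 and 7.16 against 10.57, 10.58 and 10.17, with 0.66 and -3.00 on the 2 slides. Il10, the anti-inflammatory cytokine, read 7.92 and 8.90 against 6.77, 7.61 and 10.48 (difference 0.12), and the sign of its mean difference depended on the array left out: without Pam3CSK4 replicate 3 it was -0.37, and without Poly(I:C) replicate 1 or 2 it was -0.64 or -0.22. In each of these genes the groups overlap, and none was called.

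The subunits and feedback inhibitors of NF-κB had a median difference of 0.47 (0.078 for all genes). Of their means, 15 of 19 were higher after Pam3CSK4, against 7817 of 13513 for all genes. In limma 0 were called in either direction, and 4 of the 19 had an unadjusted p under 0.05 in the Pam3CSK4 direction and 0 in the other, against 8.4% and 8.58% of all genes. Nfkbia (IκBα), the inhibitor that holds NF-κB in the cytoplasm, read 17.44 and 16.84 against 16.28, 15.98 and 16.22 (difference 0.98, SE 0.25, limma adjusted p = 0.148). All 5 arrays lay above the naïve arrays (13.37 to 15.53), and the groups do not overlap. Nfkbiz (IκBζ), a nuclear cofactor, read 12.53 and 12.46 against 9.93, 9.76 and 12.33, with 2.6 on slide 1 and 0.13 on slide 3. Zc3h12a (regnase-1), an RNase that degrades cytokine mRNA, was the 1 called in the fit of 8 groups (difference 3.25, adjusted p = 0.0283 in limma), where 3.63% of all genes were called in that direction. It read 11.18 and 10.53 against 6.51, 6.62 and 9.69, and its gap was 4.67 on slide 1 and 0.84 on slide 3. The subunits Nfkb1, Nfkb2, Rela, Relb and Rel differed by 0.26 to 0.73, and Tnfaip3 (A20), a deubiquitinase that ends the signal, by 0.10.

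Immediate early factors and MAP kinase phosphatases were not called in limma in either direction (0 of 26), and 11 had an unadjusted p under 0.05 in the Pam3CSK4 direction and 3 in the other, against 8.4% and 8.58% of all genes. The fit of 8 groups called 7 higher after Pam3CSK4, namely Fosl1, Fosl2, Jund, Ier2, Maff, Dusp8 and Gadd45a, and 1, Fos, higher after Poly(I:C). Of all genes it called 3.63% and 4.97%, in the same order. Fosl1 and Fosl2, AP-1 subunits of the Fos family, differed by 2.66 and 2.36 (8-group adjusted p = 0.00332 and 0.00697 in limma), while Fos itself differed by -1.69 (8-group adjusted p = 0.0366). For Fos the naïve arrays (10.46 to 12.02) lay above both Pam3CSK4 arrays (8.62 and 9.66). Gadd45a, a stress sensor, read 11.47 and 10.04 against 8.18, 7.73 and 8.23 (limma adjusted p = 0.0628, 8-group adjusted p = 0.00639), and its naïve arrays, at 9.64 to 10.57, lay above every Poly(I:C) array. Egr1, a zinc finger factor of the early response, differed by -1.47 (limma adjusted p = 0.235), and Dusp1, the phosphatase that inactivates p38 and JNK, by 0.94 (limma adjusted p = 0.2). In both the groups do not overlap.

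Among TLRs, adapters and kinases 1 of 20 was called, Peli1, a ubiquitin ligase of TLR3 and TLR4 signalling, and 0 were called higher after Pam3CSK4 (unadjusted, 3 in each direction). Of all genes 2.15% and 0.318% were called, and 8.58% and 8.4% passed unadjusted. Peli1 read 11.60 and 12.87 after Pam3CSK4 and 15.11, 15.18 and 14.77 after Poly(I:C) (difference -2.79, SE 0.42, limma adjusted p = 0.046), against 11.18 to 11.41 in naïve cells. Its gap was -3.51 on slide 1 and -1.90 on slide 3. The adapters of the TLR3 and TLR4 pathway were on the other side. Ticam1 (TRIF) read 11.90 and 11.50 against 9.32, 9.35 and 10.21 (difference 2.07, limma adjusted p = 0.0594, 8-group adjusted p = 0.00105), and its naïve arrays, at 10.51 to 11.02, lay between the ligands. Ticam2 (TRAM) differed by 2.21 and Traf3, an adapter below TRIF, by 1.09 (8-group adjusted p = 0.0164 and 0.0379 in limma).

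The receptor of Pam3CSK4 did not separate the ligands. Tlr2 read 15.92 and 14.15 after Pam3CSK4 and 15.40, 15.12 and 14.02 after Poly(I:C), all above the naïve arrays (11.66 to 13.32). Its difference was 0.19 (SE 0.67, limma adjusted p = 0.922), and it was -0.69 without Pam3CSK4 replicate 1. Its partner Tlr1 differed by 0.75 and Tlr6 by -0.09, and the groups overlap in both. Myd88, the adapter of all TLRs but TLR3, read 12.88 and 12.73 against 13.59, 13.60 and 13.53 (difference -0.77, SE 0.17, limma adjusted p = 0.11), and Tlr4 differed by -1.04 (limma adjusted p = 0.061). Both missed the threshold, and in both the groups do not overlap.

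Enzymes that make inflammatory mediators gave 0 calls in limma among 13 tested (unadjusted, 1 in the Poly(I:C) and 2 in the Pam3CSK4 direction, against 8.58% and 8.4% of all genes). Ptgs2 (COX-2), which makes prostaglandins, read 13.93 and 10.83 against 8.81, 8.73 and 9.64 (difference 3.32, SE 0.94, limma adjusted p = 0.174, 8-group adjusted p = 0.00887), with 5.12 on slide 1 and 1.19 on slide 3. Nos2, the inducible nitric oxide synthase, read 12.72 and 8.92 against 11.13, 11.46 and 10.60, with 1.59 on slide 1 and -1.67 on slide 3. Ch25h, the cholesterol 25-hydroxylase, read 11 and 9.69 against 12.92, 13.27 and 11.64 (difference -2.27, limma adjusted p = 0.172). Irg1 (Acod1), which makes itaconate, read 16.47 to 17.83 on the 5 arrays and 8.09 to 13.77 on the naïve arrays, and its difference was -0.66.

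The genes called higher after Pam3CSK4 came from none of the role lists. The probe with the widest gap lies in a non-coding RNA region on chromosome 15 and has no gene name in the array file. It read 8.25 and 7.17 after Pam3CSK4 and was not well above background on any Poly(I:C) array (3.33, 3.23 and 3.32). As measured in the fit of 5 arrays it was 21.4-fold higher after Pam3CSK4 (limma adjusted p = 0.0163). Its range over other settings is not given here. The 10 named genes with the widest gap were Gm2022, Adamts14, Ankrd37, D8Ertd82e (RefSeq Prag1), Cdkn2b, Mex3a, Zfp703, Kcnj2, Fgd3 and Osgin1. Gm2022, a predicted gene, read 7.26 and 6.53 and was not well above background on any Poly(I:C) array, which makes it at least 14.8-fold higher after Pam3CSK4 (limma adjusted p = 0.0171). Its difference ranged from 1.04 to 4.73 over the other settings and the arrays left out. Mex3a, an RNA-binding protein, was at least 7.18-fold higher on the same terms (limma adjusted p = 0.0337). It was not called with either normexp normalization, nor with 8 groups and the replicate block (limma adjusted p = 0.0589). Its difference ranged from 0.65 to 3.29 over the settings and arrays left out. The naïve arrays read 4.28, 3.01 and 6.88, the last above both Pam3CSK4 arrays (5.69 and 5). With Mex3d it made 2 of 4 Mex3 genes called, a family counted after its calls were seen (0.318% of all genes).

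These genes differed in their naïve level. Adamts14, a procollagen protease, read 8.18 and 7.59 against 3.89, 4.83 and 5.13 (difference 3.27, SE 0.44, limma adjusted p = 0.0343), and its naïve arrays, at 4.40 to 4.85, were at the Poly(I:C) level. Cdkn2b, the inhibitor p15 of cyclin-dependent kinases, read 9.05 and 8.31 against 5.87, 5.42 and 6.22, with naïve arrays at 4.23 to 5.77 (difference 2.84, SE 0.35, limma adjusted p = 0.0299). In Ankrd37, Zfp703, Kcnj2, Fgd3 and Osgin1 the naïve arrays were instead near the Pam3CSK4 level. Ankrd37, a hypoxia-inducible ankyrin-repeat protein, read 10.02 and 9 against 6.51, 6.73 and 6.47, and 8.87 to 9.53 in naïve cells (difference 2.94, SE 0.34, limma adjusted p = 0.0261). Kcnj2, an inward rectifier potassium channel, read 6.63 and 7.09 against 4.18, 4.43 and 4.24, and 6.72 to 7.27 in naïve cells (difference 2.57, SE 0.22, limma adjusted p = 0.0166). Osgin1, an oxidative stress response gene, read 11.40 and 10.98 against 8.94, 8.58 and 8.72, and 10.56 to 11.55 in naïve cells (difference 2.44, SE 0.23, limma adjusted p = 0.0183). D8Ertd82e, a regulator of cell shape, read 10.01 and 9.26 against 6.50, 6.56 and 7.31, and its naïve arrays, at 7.93 to 8.47, lay between (difference 2.85, SE 0.37, limma adjusted p = 0.0337). Zfp703 and Fgd3 differed by 2.83 and 2.49 (limma adjusted p = 0.0381 and 0.0449). Called genes beyond these 10, named after their values were seen, include Trem1, which amplifies TLR signals in myeloid cells (10.82 and 10.28 against 8.38, 8.51 and 8.56, difference 2.06, limma adjusted p = 0.024), and the kinase Pim3 (difference 2.09, limma adjusted p = 0.049).

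Cholesterol synthesis genes were not called (0 of 18 in limma, unadjusted 2 in the Pam3CSK4 direction and 0 in the other, where all genes had 8.4% and 8.58%). Of their means 16 of 18 were higher after Pam3CSK4, against 7817 of 13513 for all genes. The median difference was 0.72, against 0.078 for all genes. Within slides the median was 0.37 and 0.54. Replicate 3 was the higher array of both ligands in most of these genes. Cell cycle genes had a median of -0.21 and 0 of 22 calls in limma (unadjusted, 3 in the Poly(I:C) direction and 0 in the other, against 8.58% and 8.4% of all genes).

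The naïve level lay nearer to Pam3CSK4 for most probes called higher after Poly(I:C). For 501 of the 567 the mean of the naïve arrays was closer to the Pam3CSK4 mean (462 without naïve replicate 3). It lay between the ligands for 403, below both for 153 and above both for 11. Of the 78 probes called higher after Pam3CSK4 the naïve mean was closer to the Pam3CSK4 mean for 46 (43 without naïve replicate 3), and it lay between the ligands for 57, above both for 11 and below both for 10. Of the 567 probes 130 were not above background on either Pam3CSK4 array, and of the 78 probes 12 on any Poly(I:C) array. For such probes a naïve level near background lies close to the lower ligand. The same counts were not made over all probes tested.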

How the data were processed

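RNA of each culture was measured on 1-colour Agilent whole mouse genome arrays (Cy3). The authors deposited log2 values, made in limma with RMA background correction and quantile normalization, and scanner files (Feature Extraction 10.7.3.1, design coordinates mm9, per the file headers). From the deposited scanner files the intensity columns were used for alternative normalizations, and the flags for the detection filter. The log2 values were fitted with limma 3.58.1 (lmFit, eBayes) in R 4.3.3, with the package data.table (1.17.8), on 2 against 3 arrays. A call needed a Benjamini-Hochberg adjusted p under 0.05 and a 1.5-fold difference. Genes named are the 10 with the widest called difference in each direction, a fixed set of examples, and up to 4 called members of each list in each direction with the widest difference; other list members were named after their values were seen. Members and lists were chosen with earlier results of these data known. The script was tested on simulated data. Replicate numbers mark slides, and deviations of same-numbered arrays correlated at 0.51 and 0.66. Alternatives were 18 other settings and each of 5 arrays left out in turn. Arrays, not read depth, limit the precision.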

Additional observations from a re-analysis of the deposited data

How the results depend on the processing

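The counts of calls (567 higher after Poly(I:C) and 78 higher after Pam3CSK4) were sensitive to how the spread was estimated. With the replicate number as a block, 0 and 0 probes were called in limma while 6594 had an unadjusted p under 0.05, and the smallest adjusted p of a named gene was 0.0589. Only 2 pairs share a number, with correlated deviations (0.51 and 0.66). With the slide as a random block the counts were 2054 and 1884 (in the same order), with 8 groups 1230 and 793, with 8 groups and the replicate block 1494 and 1294, and with 9 groups 1314 and 833. Without a detection filter they were 263 and 7. Normexp with quantile normalization gave 125 higher after Pam3CSK4, and a filter for probes above background on every array gave 118. Pam3CSK4 replicate 2 put back gave 0 and 0 (1153 unadjusted). Leaving out 1 array gave 0 to 799 and 0 to 232 in the fit of 5 arrays, and in that of 8 groups 607 to 1447 and 290 to 1338 (389 and 367 higher after Pam3CSK4 without Pam3CSK4 replicates 1 and 3, and 328 without Poly(I:C) replicate 1), chosen after seeing the data like the removal of naïve replicate 3 (1365 and 942). The cause was not tested. Signs turned in 5 genes that were not called. Il10 (0.12) became -0.22 with the replicate block, -0.13 with the random block, -0.18 with 8 groups and the block, -0.02 and -0.13 with normexp and quantile or median scaling, -0.86 with Pam3CSK4 replicate 2 put back. Dusp1 became -0.18 and Nos2 0.31 with that replicate put back. Leaving out each array in turn gave -0.64 to 1.22 for Il10 (-0.37 without Pam3CSK4 replicate 3, -0.22 without Poly(I:C) replicate 2), -3.28 to 0.79 for Il12b, -2.14 to 1.66 for Nos2 and -0.69 to 1.07 for Tlr2 (-0.23 without Poly(I:C) replicate 3).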
